A study of Mus musculus with 6 samples.

Results

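The 9 genes described here, Dazl, Dnd1, Nanos1, Nanos2, Nanos3, Pum2, Lin28a, Lin28b and Tial1, encode RNA-binding proteins with known roles in germ cells. They were chosen by name, with earlier results of these data known, out of 21751 protein-coding genes in the annotation. Each row of 4 deposited interval lists was taken when its nearest start site or its annotation named a transcript of one of them. All samples were prospermatogonia, which are the germ cells that a testis holds before birth, of C57BL/6 strain and Taf4b-wildtype genotype at E16.5 per the labels. The parents were homozygous for the Oct4-EGFP transgene of the line B6;129S4-Pou5f1tm2Jae/J, whose fluorescence follows the Oct4 (Pou5f1) locus, and live gonadal cells were sorted on that signal. In CUT&RUN an antibody directs a nuclease to its target and the released DNA is sequenced. The antibodies were against TAF4b, which is part of the TFIID complex that assembles at promoters, against H3K4me3, a histone mark of active and poised promoters, and IgG as a control, each in 2 replicates. The 2 IgG libraries were not analysed here. Neither the number of embryos behind a library nor the independence of the replicates is stated.

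RNA-binding proteins act on transcripts that are already made. In germ cells DAZL promotes the translation of bound mRNAs, the NANOS proteins and DND1 bring bound mRNAs to the CCR4-NOT complex, which removes their poly(A) tails, and PUM2 is a Pumilio protein of the family that works with NANOS in many animals. LIN28A and LIN28B block the maturation of the let-7 microRNAs, and TIAL1 is an RNA-binding protein needed for primordial germ cells to survive. These are background facts; the lists hold intervals on DNA and measure neither RNA nor protein.

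All 32 rows that name these genes came from replicate 1. TAF4b replicate 1 held 12 of them among its 7861 peaks and H3K4me3 replicate 1 held 20 among its 64891 regions. The smaller lists, with 848 TAF4b peaks and 1730 H3K4me3 regions, held 0. A TAF4b row of the promoter-TSS class, which the annotation program assigns from the interval's centre, was present at 5 of 9 genes (Dazl, Dnd1, Pum2, Lin28b and Tial1), against 22.7% of all protein-coding genes. When the peak itself had to cover an annotated start, a rule added after the data were seen, 3 of 9 genes counted (Dazl, Dnd1 and Pum2), against 20.0%. An H3K4me3 row of the promoter-TSS class was present at 3 of 9 genes (Dazl, Pum2 and Lin28b), against 44.0% of all protein-coding genes. The count was 8 of 9 against 62.0% within 1000 bp of a start, and 7 of 9 against 64.3% where a region had to cover one, so that its side of the background turned with the rule. In replicate 2 the shares of the promoter-TSS class over all protein-coding genes were 3.14% for TAF4b and 4.14% for H3K4me3. With 9 genes and 1 list per antibody that holds any of them, these counts are a description and were not tested.

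The strongest TAF4b peak among the 9 genes, and 2 other promoter peaks, are shown first, since these 3 overlap no exon of a coding gene. The Tial1 peak does overlap an exon of the long noncoding RNA gene Gm32816. Each is the whole deposited peak on GRCm39, read 5′ to 3′ on the strand of the gene, with matches to the GC box (GGGCGG) and the CCAAT box (CCAAT), on either strand, in capitals. The Tial1 peak lies at chr7:128063469-128063611 on the minus strand, the Dazl peak at chr17:50600682-50600824 on the minus strand and the Lin28b peak at chr10:45362582-45362724 on the minus strand.
Tial1: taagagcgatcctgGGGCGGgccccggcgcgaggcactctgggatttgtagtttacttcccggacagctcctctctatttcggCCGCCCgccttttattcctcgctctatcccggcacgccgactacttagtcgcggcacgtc
Dazl: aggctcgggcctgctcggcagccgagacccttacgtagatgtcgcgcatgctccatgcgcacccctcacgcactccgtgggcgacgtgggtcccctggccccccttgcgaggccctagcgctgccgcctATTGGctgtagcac
Lin28b: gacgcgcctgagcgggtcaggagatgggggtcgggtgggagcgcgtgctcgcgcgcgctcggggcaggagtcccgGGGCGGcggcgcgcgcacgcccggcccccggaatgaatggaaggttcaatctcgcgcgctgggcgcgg
The Tial1 peak held 2 GC boxes, 1 on each strand, the Dazl peak held 1 CCAAT box on the reverse strand and the Lin28b peak held 1 GC box. The GC content of the letters was 61.5% for Tial1, 69.2% for Dazl and 76.9% for Lin28b.

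Dazl is a germ cell gene with 6 annotated start sites, and TAF4b peaks lay at the outermost one and at one inside the gene. The peak printed above, centred 89 bp upstream of the canonical start, had the authors' peak score of 23.3 and ranked 1634 of 7861 (20.8%, where 0 is the highest). The second peak (chromosome 17, 50599799 to 50599941) was centred 50 bp downstream of an internal start, 794 bp downstream of the canonical start, with a score of 16.9 and rank 3159 (40.2%). Among the 4944 coding genes with a TAF4b promoter row, 5.89% had at least 2 such rows, and Dazl and Pum2 were among them.

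The H3K4me3 rows of Dazl were arranged around these peaks. The region at the internal start (50599419 to 50600424, score 55.2, rank 26471 of 64891) held the internal TAF4b peak. The TAF4b peak at the canonical start overlapped no H3K4me3 region: it lay 258 bp from that region on one side and 777 bp from a weaker region (50601601 to 50602244, score 22.4) on the other. A further 2 regions lay 6799 and 11059 bp upstream, with scores of 40.2 and 29.8. The median score of the H3K4me3 list was 46.2, so that the internal region alone scored above it.

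The 3 NANOS genes encode zinc finger proteins, and none had a TAF4b row of the promoter class. Nanos1 (chromosome 19) is a gene of 1 exon with 1 annotated start. Its H3K4me3 region (60743712 to 60746039) covered that start, was 2327 bp wide, wider than 97.3% of the regions in the list, and had a score of 140.1 and rank 3439 (5.30%). It also covered a start of Gm34459, a long noncoding RNA gene on the other strand. Inside it lay 2 TAF4b peaks, 300 and 799 bp downstream of the start, both classed as exon. Their scores were 13.4 (rank 4384) and 7.94 (rank 7270), so that the latter stood at 92.5% of the list.

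Nanos2, whose product promotes the male fate of fetal germ cells, had no row within 10 kb of its start. Its only TAF4b row was an intergenic peak centred 10465 bp upstream (chromosome 7, 18710789 to 18710931, score 10.4, rank 5762), with no H3K4me3 region within 12848 bp. The 2 H3K4me3 rows that name Nanos2 as the nearest promoter lay 23973 and 29178 bp upstream in an exon of Nova2. The nearest intervals to the Nanos2 start belonged to the neighbouring gene Mypop: an H3K4me3 region 2702 bp away and a TAF4b peak 3285 bp away.

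Nanos3, which is needed for primordial germ cells to survive, had no TAF4b row, and the nearest peak was 21929 bp from its coding start. Its 3 H3K4me3 rows were all upstream of that start. The strongest (chromosome 8, 84913003 to 84914339, score 105.8, rank 8271) lay 10490 bp upstream, outside the gene, and 1825 bp upstream of the start of a longer Nanos3 transcript with no defined coding sequence. Another, of 500 bp (score 29.8), lay 887 bp inside that longer transcript. The third (score 19.4) lay 4102 bp upstream of the coding start, and its nearest annotated promoter was that of the microRNA gene Mir181c. The coding start itself was 3852 bp from the closest region.

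Dnd1, whose protein binds NANOS2 in male germ cells, had the highest-scoring H3K4me3 row of the 9 genes. The region (chromosome 18, 36897981 to 36899757) had a score of 172.9 and rank 1457 (2.25%), and covered all 4 annotated Dnd1 starts and a start of the long noncoding RNA gene Gm58557 on the opposite strand. Its row was classed as a transcript end of the neighbouring gene Hars1, so that the promoter class missed it. The single TAF4b peak (36899221 to 36899363) lay inside the region, 25 bp upstream of the start named in its row, with a score of 17.4 and rank 3016 (38.4%). The neighbouring coding gene Wdr55 carried its own TAF4b peak (score 12.9) and H3K4me3 region (score 82.0).

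Pum2, a gene with 36 annotated starts, had the most rows of the 9 genes, with 3 for TAF4b and 4 for H3K4me3. At its start sites, 2 TAF4b peaks with equal scores of 11.4 (rank 5293, 67.3%) lay at 8724100 to 8724242 and at 8724606 to 8724748 on chromosome 12. The first was centred 53 bp upstream of the canonical start and fell between the 2 H3K4me3 regions of the promoter, 7 bp from one and 383 bp from the other. It also covers a start of Gm56512, a long noncoding RNA gene on the other strand. The second overlapped the downstream region. These promoter regions (8723335 to 8724093 and 8724625 to 8725717) had the same score of 65.6 (rank 20730, 31.9%).

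A separate pair of intervals lay far upstream of Pum2, with the TAF4b peak centred 33090 bp from the canonical start. The H3K4me3 region there (8690176 to 8691962, 1786 bp wide) had a score of 113.3 and rank 6759 (10.4%), higher than both regions at the Pum2 start. The TAF4b peak inside it (8691063 to 8691205, score 16.4, rank 3311) also scored higher than both peaks at the Pum2 start. Although its rows name Pum2 as the nearest promoter, the region covers a start of Gm56531, a long noncoding RNA gene on the other strand in the annotation used here. The peak is shown because it held the most motif matches of the 12 member peaks, with 4 GC boxes on the reverse strand, of which 2 overlap each other, and 1 CCAAT box. It is given on the plus strand of GRCm39 at chr12:8691063-8691205.
Pum2 upstream: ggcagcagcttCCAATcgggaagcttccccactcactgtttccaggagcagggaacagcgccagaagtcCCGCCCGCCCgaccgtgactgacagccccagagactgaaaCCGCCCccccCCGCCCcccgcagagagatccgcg

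The paralogs Lin28a and Lin28b differed in TAF4b rows. Lin28a had 0, and the nearest peak lay 17841 bp from its canonical start. Its single H3K4me3 row was intronic, 906 bp downstream of an internal start, with a score of 32.8 and rank 43363 (66.8%). A stronger region covered the canonical start of Lin28a (chromosome 4, 133744611 to 133746272, 1661 bp, score 131.2, rank 4309) together with a second start, but its row names Gm13061, a long noncoding RNA gene on the opposite strand. That region was found by position after the rows were seen, and it held no TAF4b peak.

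Lin28b has 5 annotated starts, and the outermost lies far upstream of the canonical one. The TAF4b promoter peak and the H3K4me3 promoter region lay at different ones of these. At the canonical, downstream start an H3K4me3 region was listed (chromosome 10, 45345846 to 45346659, score 50.7, rank 28964), with no TAF4b peak closer than 3336 bp to it. The TAF4b peak printed above lay 96 bp upstream of the outer start, 16297 bp upstream of the canonical one. It had a score of 23.8 and rank 1535 (19.5%), and the closest H3K4me3 regions were 10654 and 12580 bp away. Between the starts, 3710 bp upstream of the canonical one, a TAF4b peak with a score of 7.44 (rank 7626, 97.0%) overlapped the edge of an intronic H3K4me3 region of score 49.2. A last H3K4me3 region (score 40.2) lay 11166 bp beyond the outer start.

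Tial1 had the highest TAF4b score of the 9 genes. Its peak of 48.6 ranked 48 of 7861 (0.611%) and scored above 99.1% of the 5756 promoter rows, whose median was 16.9 and whose quartiles were 11.9 and 24.3. The other 6 member promoter rows scored between 11.4 and 23.8. The Tial1 peak was centred 99 bp upstream of the outermost start, inside an H3K4me3 region (128061744 to 128063799, 2055 bp, score 104.3, rank 8457). It also holds a start of Gm32816, a long noncoding RNA gene on the other strand.

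**Figure D1:**
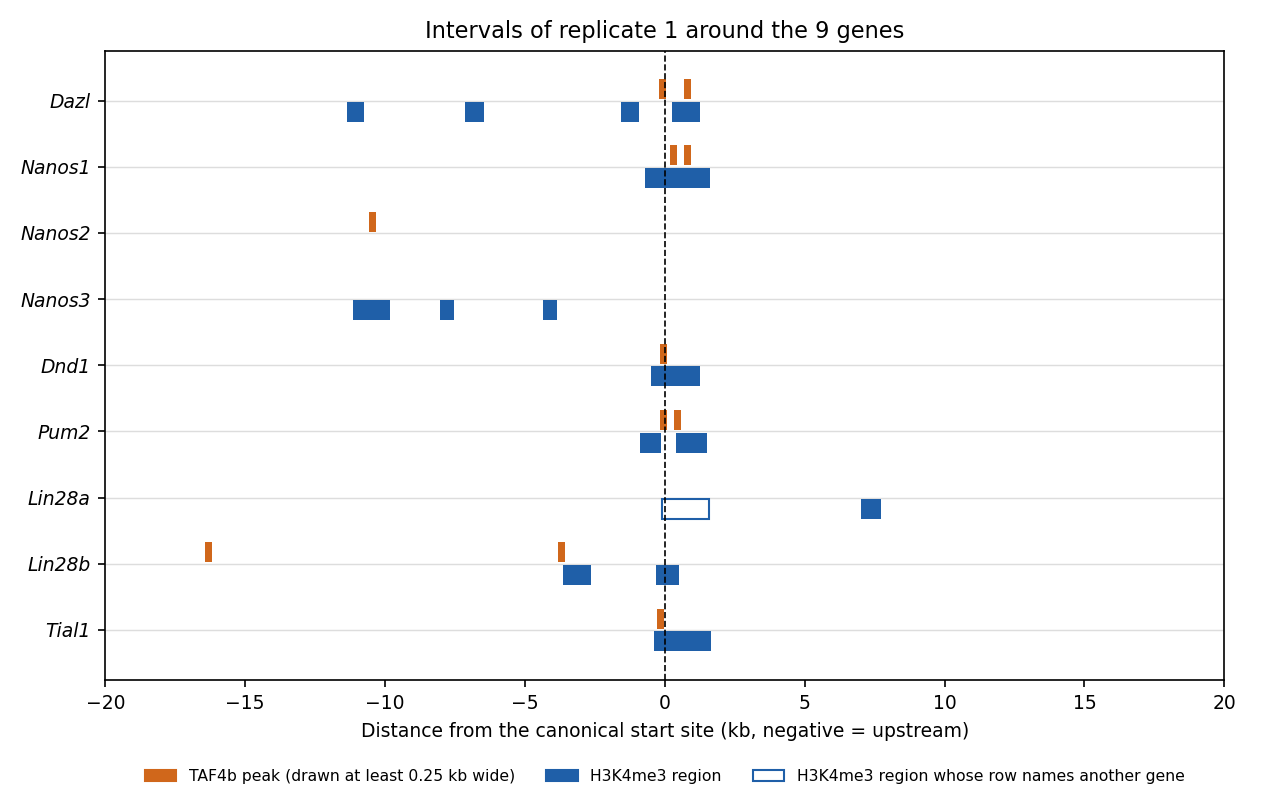
TAF4b peaks (orange) and H3K4me3 regions (blue) of replicate 1 that name each gene, plotted by distance in kb from the canonical start site along the direction of transcription, up to 20 kb on either side. The open box is the region at the Lin28a start whose row names Gm13061, and 1 TAF4b and 5 H3K4me3 rows of the members lie outside the window. Dazl, Nanos1, Dnd1, Pum2 and Tial1 have TAF4b peaks within 1 kb of the canonical start, and Nanos2 and Nanos3 have no interval there.

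**Figure D2:**
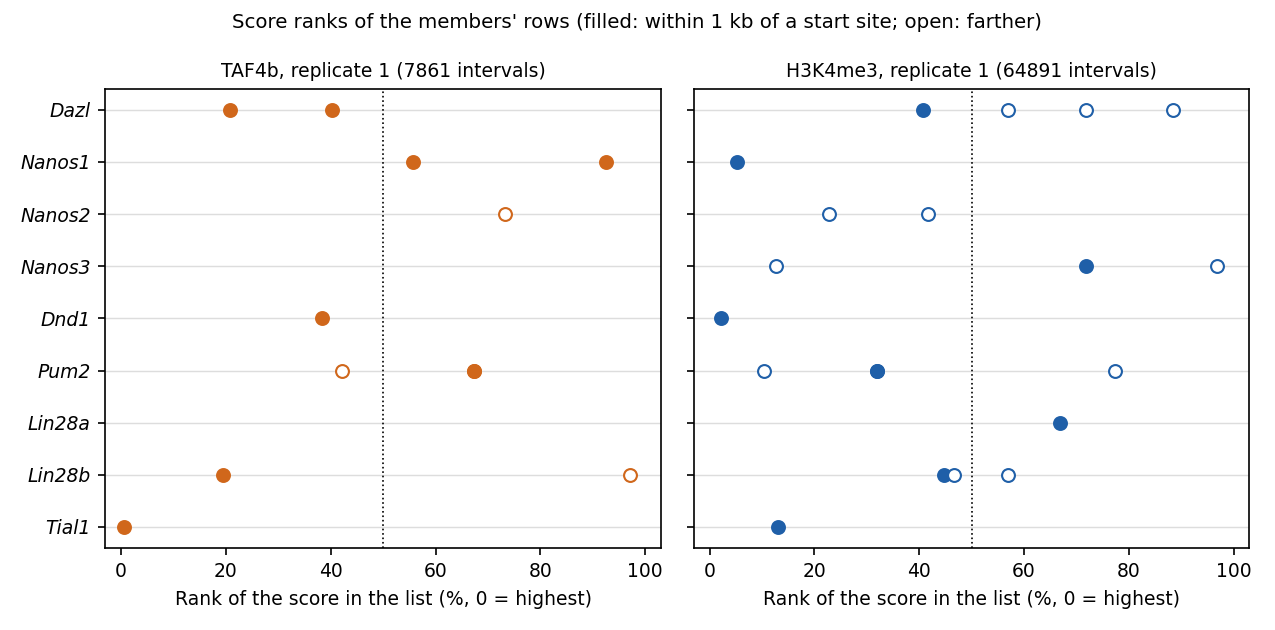
Rank of each member row by score within its list, as a percentage where 0 is the highest score, for the 7861 TAF4b peaks (left) and 64891 H3K4me3 regions (right) of replicate 1; filled points lie within 1 kb of a start and open points farther away, and the dotted line marks the middle of the list. Tial1 leads the TAF4b rows at 0.611% and Dnd1 the H3K4me3 rows at 2.25%; the 2 Pum2 rows within 1 kb of a start share 1 point in each panel.

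The members were also counted by distance to a start, whatever the class of the row. This distance, like the promoter class, is measured from the centre of the interval. Within 1000 bp of a start, 6 of 9 genes had a TAF4b row in replicate 1 (Nanos1 was added), against 23.9% of protein-coding genes, and 8 of 9 had an H3K4me3 row (all but Nanos2), against 62.0%. In replicate 2 both counts were 0 of 9, where 3.20% (TAF4b) and 5.89% (H3K4me3) of protein-coding genes had such a row. When a gene was counted if an H3K4me3 region covered one of its starts, 7 of 9 genes counted, against 64.3%: Nanos2 and Nanos3 did not. Dnd1, Nanos1 and Tial1, whose wide regions are centred outside the promoter class, were added under both rules. Under the distance rule the others added were Lin28a and Nanos3, through the intronic regions described above. Under the rule on covered starts the other was Lin28a, through the region whose row names Gm13061.

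No member row was found again in replicate 2. The interval of TAF4b replicate 2 nearest to a canonical start was 46835 bp away at Nanos3 and 5168015 bp away at Lin28b, the closest and farthest cases. For H3K4me3 replicate 2 the corresponding distances were 21330 bp at Dnd1 and 864815 bp at Dazl. Of the 52 TAF4b replicate 1 peaks that scored at least as high as Tial1, 37 (71.2%) overlapped a peak of replicate 2. The Tial1 peak did not. Of the 4572 promoter rows ranked between Tial1 and Pum2, 576 (12.6%) overlapped one. For H3K4me3, 349 of the 1539 regions (22.7%) scoring at least as high as that of Dnd1 were found again. Of the 62677 regions between the highest and the lowest member rank, 1351 (2.16%) were. The lowest score listed for TAF4b was 40.5 in replicate 2 and 6.45 in replicate 1. For H3K4me3 it was 96.0 in replicate 2 and 16.4 in replicate 1. Whether the lists share a score scale is not stated, so the part of these floors in the absence was not tested. The depth of the libraries is unknown, since the lists carry scores and no read numbers, and the absence of these rows from replicate 2 cannot be set against it.

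The 12 TAF4b rows were compared with H3K4me3 regions of the same replicate. Of these, 8 shared at least 1 bp with a region, against 84.1% of all TAF4b replicate 1 peaks. The 4 without one were the canonical Dazl peak, the first Pum2 promoter peak, the outer Lin28b peak and the Nanos2 intergenic peak. Over the list, 1249 peaks overlapped no region, and 243 of them (19.5%) had a region within 1000 bp on both sides. The Dazl and Pum2 peaks were of this kind, and the Lin28b and Nanos2 peaks had no region that close on either side.

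Sequence at the start sites is a feature that the choice of genes did not use. CpG content was given as the observed number of CG dinucleotides over the number expected from C and G content, in 500 bp to each side of the canonical start. Its median was 0.775 at the 4944 coding genes with a TAF4b promoter peak in replicate 1 and 0.434 at the 16807 without one. Pum2 (0.913), Nanos1 (0.852), Tial1 (0.759) and Dazl (0.734) lay in the upper part of the range, above at least 69.3% of coding genes. Nanos2 (0.142) and Nanos3 (0.193) lay low, with 13.9% and 20.6% of coding genes below them, and these were the genes with no TAF4b or H3K4me3 interval at the coding start. Dnd1 (0.434), Lin28b (0.456) and Lin28a (0.380) lay between. For Lin28b the value was 1.09 at the outer start, where its TAF4b peak lies.

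**Figure D3:**
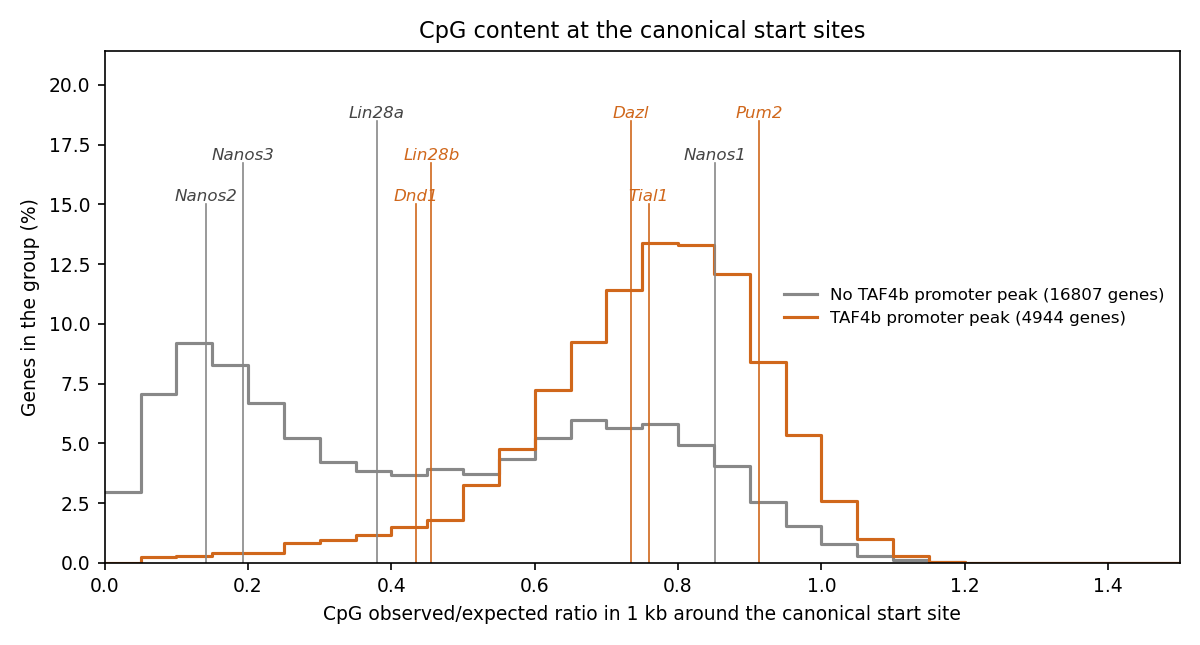
CpG observed/expected ratio around canonical start sites (x axis) as the percentage of genes (y axis) for coding genes with (orange) and without (grey) a TAF4b promoter peak in replicate 1, with the 9 genes marked in the colour of their group. Nanos2 and Nanos3 sit at the low end (0.142 and 0.193) and Pum2 at 0.913; Dnd1, with a ratio of 0.434, has a TAF4b promoter peak at its canonical start, while the 0.456 of Lin28b belongs to its canonical start and not to the outer start with the peak, where it is 1.09.

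Motif letters were searched on both strands of the 12 member peaks and of all 7861 peaks, which have the same length of 143 bases. The GC box (GGGCGG) was present in 5 of 12 member peaks, against 48.5% of all peaks. The CCAAT box was present in 3 of 12 (the canonical Dazl peak, the Dnd1 peak and the upstream Pum2 peak), against 39.5%. The ETS letters CCGGAAG were present in 2 of 12 (a Nanos1 peak and a Pum2 promoter peak), against 11.0%. No member peak held the TATA box (TATAAA, 1.87% of all peaks), the CRE (TGACGTCA, 3.94%), the NRF1 core (CGCATGCG, 2.58%), the E-box (CACGTG, 7.24%) or the E2F letters (TTCCCGCC, 2.19%). These are matches of letters, and 12 peaks are too few to set their shares against those of the list.

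Paralogs of the members, the pathways in which the 9 proteins act and other RNA regulators of germ cells were described by 5 lists with 49 further genes. The pooled counts are therefore not values for the pathways alone, and the lists were chosen with earlier results of these data known. A TAF4b promoter row was present at 28 of 49 in replicate 1 (57.1%, beside 22.7% of protein-coding genes) and at 3 of 49 in replicate 2 (6.12%, beside 3.14%). An H3K4me3 promoter row was present at 37 of 49 in replicate 1 (beside 44.0% of protein-coding genes) and at 2 of 49 in replicate 2, a share near the 4.14% of protein-coding genes.

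CCR4-NOT, the deadenylase that NANOS and DND1 recruit, was the list with TAF4b rows in both replicates. In replicate 1, 7 of its 11 subunit genes had a promoter row, and the highest scores were those of Cnot9 (42.2, rank 129), Cnot1, the scaffold subunit (27.3, rank 1001), and Cnot10 (21.8, rank 1901). In replicate 2, Cnot9 (score 101.2, rank 61 of 848), Cnot4 (68.8, rank 265) and Cnot1 (60.7, rank 382) had one. The peaks of the replicates shared 115 bp at Cnot4, 44 bp at Cnot9 and 9 bp at Cnot1. None of the 9 members had a row there.

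The other lists had TAF4b promoter rows in replicate 1 only. Among paralogs of members, Tia1 (score 15.9), the paralog of Tial1, and Boll (12.9), of the DAZ family, had one. Of 10 genes of let-7 processing and use, 4 had one, led by the Microprocessor subunit gene Dgcr8 (26.8), Dicer1 (15.9), which encodes the nuclease that cuts microRNA precursors, and Tut4 (11.9), whose product adds uridines to let-7 precursors bound by LIN28A. Of 10 processing body and cap-related genes, 6 had one, led by Dcp2, the decapping enzyme gene (21.8), Lsm14b (21.8) and Pabpc1 (18.9). Of 15 genes grouped here as other RNA regulators of germ cells, 9 had one, led by Meioc (30.3, rank 706), Rbm46 (27.3) and Ybx2 (25.8). The H3K4me3 promoter rows of replicate 2 in these lists were those of Dcp1a (score 126.3, rank 523 of 1730) and Dcp2 (111.2, rank 816).

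**Figure D4:**
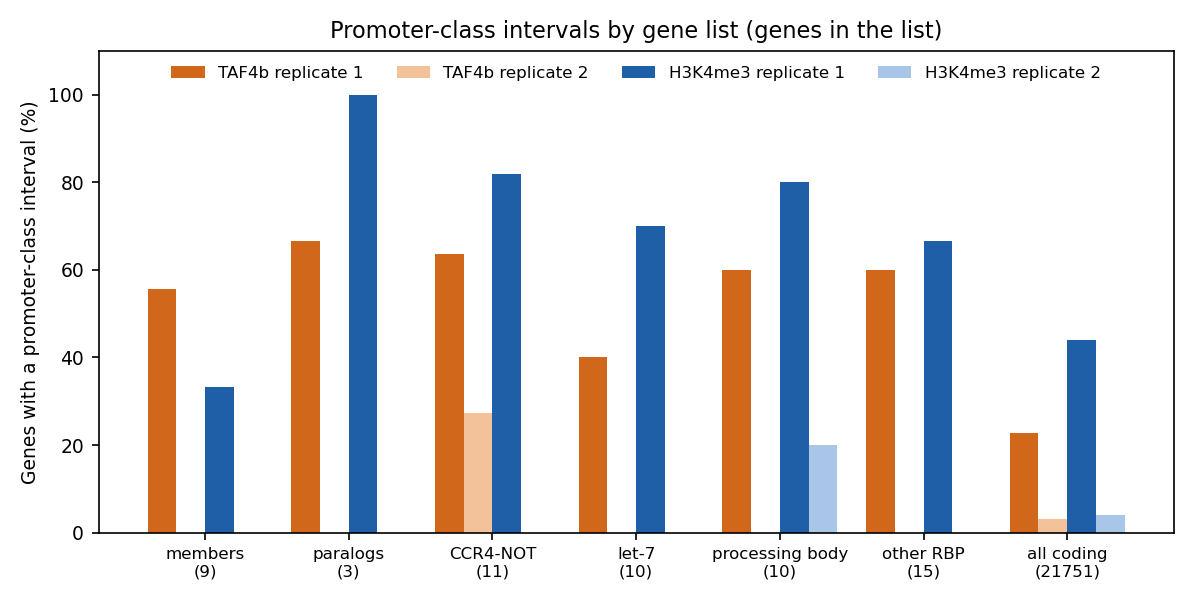
Percentage of genes with a promoter-class interval in each of the 4 lists of intervals, for the 9 members, the 5 partner lists and all protein-coding genes, with the number of genes in parentheses. The members stand at 55.6% for TAF4b and 33.3% for H3K4me3 in replicate 1 (the latter is 88.9% within 1000 bp of a start and 77.8% by covered starts, which are not drawn) and at 0 in replicate 2, where, of the member and partner lists, the CCR4-NOT list alone has TAF4b rows (27.3%).

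As a check of the labelled cell type, 4 of 6 germ cell markers (Ddx4, Mael, Sall4 and Sycp3) had a TAF4b promoter row in replicate 1, beside 22.7% of protein-coding genes. The remaining markers of that list, Dppa3 and Pou5f1, had none. Pou5f1, the locus that the sorting signal follows, had no H3K4me3 promoter row either. Of 13 markers of Sertoli, Leydig and interstitial, endothelial and blood cells, 0 had a TAF4b promoter row, beside the same 22.7%. H3K4me3 promoter rows were present at 4 of 6 germ cell markers and at 5 of 13 of the others (3 of 4 Sertoli, 2 of 5 Leydig and interstitial, 0 of 2 endothelial and 0 of 2 blood markers), beside 44.0% of protein-coding genes, and replicate 2 had none at any of these markers with either antibody. The part of other cell types in the member rows was not tested.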

How the data were processed

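Each deposited list holds intervals of 1 library with an interval score (the authors' peak score), whose scaling and calling threshold are not given in the sources used here. The share of tags at the centre of TAF4b peaks, a fraction in the deposited lists, was not used. Per the file headers, H3K4me3 regions were annotated by HOMER with GRCm39 and Ensembl 103, and the submitters' processing notes list HOMER 4.10, Bowtie2 2.3.0 and SAMtools 1.9. GRCm39 was taken for all lists. Transcript identifiers were matched to genes in GENCODE M39 (at least 98.6% of rows in each list), and 0 unmatched rows lay within 5000 bp of a member. Ranks run from the highest score, with ties given the best rank. Sequence came from the GRCm39 primary assembly. Python 3.11.15 and pandas 2.3.3 were used, and the overlap code was tested on simulated intervals. Overlap means at least 1 bp. The members and lists were chosen with earlier results of these data known, and no test was run. Named partner genes are those with a TAF4b promoter row in replicate 2 and the 3 highest replicate 1 scores per list; Dcp1a was named for its H3K4me3 row in replicate 2 after its values were seen. The Wdr55, Mypop, Hars1, Nova2 and long noncoding RNA neighbours were named from the intervals. Alternatives were other row rules, the higher-scoring 50%, other overlaps and leaving out a replicate. The result of 1 listed gene is not reported here.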

Additional observations from a re-analysis of the deposited data

How the results depend on the processing

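For the counts varied here, the values over both replicates equalled those of replicate 1. Leaving out replicate 1 ended every one of them except the partner genes with a TAF4b promoter interval. The H3K4me3 count of the partner lists was not varied. The ranges with each replicate left out were 0 to 5 members with a TAF4b promoter interval, 0 to 3 with an H3K4me3 one, 0 to 8 TAF4b rows in an H3K4me3 region and 3 to 28 partner genes. The H3K4me3 count of 3 became 8 within 1000 bp of a start, 9 with any row that names the gene and 7 when a region had to cover a start. The class and the distance are both measured from the centre of the interval. The TAF4b count of 5 became 3 when a peak had to cover a start, an alternative added after the data were seen. With the other replicate's H3K4me3 list the overlap count of 8 became 0. The remaining settings, which were the 1000 bp rule and any row for TAF4b, the higher-scoring 50%, 50% overlap and the partner lists within 1000 bp, stayed within 1.5 times the reported count. Depth is unknown, and the score scale is not stated, so scores were compared within 1 list only.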
